A study of Mus musculus with 4 samples.

Results

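The dividing CD4 T cells of the mouse spleen were picked out of a single-cell RNA library by their transcripts for the division machinery. A cell was taken when it had at least 200 genes, under 10% mitochondrial UMIs (unique molecular identifiers, each standing for 1 captured transcript), a top hashtag of at least 10 UMIs and at least 3 times the next, a UMI of Cd3e (a chain of the T cell receptor complex) and none of Cd79a (a chain of the B cell receptor). It also had to hold at least 1 UMI of Mki67, the Ki-67 proliferation antigen, and of at least 1 of 4 partner genes: Top2a (DNA topoisomerase II), Cdk1 (the mitotic kinase), Ccna2 (cyclin A2) and Birc5 (survivin). Of 9307 barcodes in the T cell library, 9196 passed the gene and mitochondrial limits, 8188 of these also had a clear hashtag, 7713 were T cells by Cd3e and Cd79a, and 217 of them (2.81%) were dividing. The remaining 7496 are called other T cells here. Since the cells were chosen by these genes, every comparison of dividing with other T cells is a description, with no test.

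The study examined the early response to sheep red blood cells, a particulate immunogen that elicits germinal centers, in mice lacking Il2rb, the beta chain of the receptors for IL-2 and IL-15, in B cells. All mice were on the C57BL/6NRj background. The genotype label gives the same text for both genotypes, a Cre allele with floxed Il2rb, so control (Cre) and KO were taken from the hashtag labels, and whether the control mice carry the floxed alleles cannot be told apart from these labels. The T cells described here are not the target of the deletion. Spleens came from unimmunized mice (day 0) and from mice 4 days after intraperitoneal immunization (day 4), giving 4 hashtagged pools, control and KO at each time, and the sources used here do not state the number, sex or age of the mice in a pool. CD4 T cells were isolated magnetically, with a naive CD4 T cell kit named in the protocol. A naive kit is made to deplete activated cells, and since Foxp3+, Cxcr5+ and dividing cells were present, which kit was used is unclear. The shares below are shares of the isolated cells and not of all splenic CD4 T cells. Each genotype and day is therefore 1 pool, no difference between pools has a replicate check, and no p-value is given. Intervals are exact 95% intervals for shares (Clopper-Pearson), for levels in CPM (a gene's UMIs per 1000000 UMIs of the group, Poisson) and for ratios of levels or shares (conditional binomial), and they cover counting error only.

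A resting T cell that meets its antigen enters the cell cycle, copies its DNA in S phase and separates the copies in mitosis. The genes for these steps are switched on in waves: E2F factors drive the replication genes, and histone genes are transcribed while DNA is copied. The MuvB complex with B-MYB and FOXM1 drives the mitotic genes through the CHR element near their start sites. CCAAT boxes are often found near these start sites as well. In the spleen, dividing CD4 T cells can be recently activated helper cells, follicular helper cells, which carry the B cell zone receptor CXCR5 and help B cells, or regulatory T cells, which carry the factor FOXP3 and turn over continuously.

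The promoters of 6 genes that the results below turn on are shown, 5 chosen because they hold these elements and that of Birc5 because it does not. Each line gives the 120 bases before the start site, read 5′ to 3′ on the gene's own strand, from RefSeq on GRCm38.p6. Capitals mark a match, on either strand, to the CHR element, the CCAAT box or an E2F site. The CHR element was sought as the letters TTTGAA and the box by the letters of its name. E2F sites were sought as TTTCCCGC, TTTGGCGC, TTCCCGCC or TTGGCGCC. On the reverse strand the last of these can share its final 4 bases with a box.
Top2a, DNA topoisomerase II alpha, chr11:99024190-99024309, minus strand: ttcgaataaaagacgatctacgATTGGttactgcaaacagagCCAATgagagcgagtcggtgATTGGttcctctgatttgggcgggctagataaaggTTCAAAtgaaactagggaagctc
Cdk1, the mitotic kinase, chr10:69352913-69353032, minus strand: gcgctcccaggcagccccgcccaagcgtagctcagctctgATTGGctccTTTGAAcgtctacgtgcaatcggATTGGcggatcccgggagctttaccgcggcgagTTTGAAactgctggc
Ube2c, the ubiquitin-conjugating enzyme of the anaphase-promoting complex, chr2:164769809-164769928, plus strand: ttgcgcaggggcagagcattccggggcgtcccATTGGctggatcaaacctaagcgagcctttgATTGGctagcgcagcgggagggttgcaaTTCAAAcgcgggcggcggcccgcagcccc
Mcm3, a subunit of the replicative helicase, chr1:20820313-20820432, minus strand: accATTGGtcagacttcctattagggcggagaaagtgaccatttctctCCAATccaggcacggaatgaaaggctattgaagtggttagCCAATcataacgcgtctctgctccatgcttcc
Uhrf1, which carries DNA methylation onto the new strand, chr17:56303217-56303336, plus strand: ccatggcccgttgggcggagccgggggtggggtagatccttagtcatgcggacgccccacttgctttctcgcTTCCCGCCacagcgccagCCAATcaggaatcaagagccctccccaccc
Birc5, survivin, chr11:117849117-117849236, plus strand: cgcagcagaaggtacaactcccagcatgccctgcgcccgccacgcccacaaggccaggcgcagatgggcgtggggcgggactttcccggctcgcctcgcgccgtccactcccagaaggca
Birc5, 1 of the rule genes, had no match to any of these motifs in the 250 bases searched.

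Over the 250 bases before the start, 16.3% of 27025 RefSeq promoters held a CHR element, 34.5% a CCAAT box, 3.22% an E2F site and 5.73% both CHR and CCAAT. Of the 45 mitosis genes examined below, 39 were in the promoter table, and 13 of these (33.3%) held CHR, 28 (71.8%) CCAAT, 2 (5.13%) E2F and 12 (30.8%) CHR with CCAAT. Of the 35 DNA replication genes, 28 were in the table, and 5 (17.9%) held CHR, 20 (71.4%) CCAAT and 9 (32.1%) E2F. By count, the mitosis promoters held the CHR element more often than the replication promoters and the E2F site less often, and both held CCAAT at a like share. Among other lists, 18 of 21 genes of quiescence and homing were in the table, with CHR in 1 (5.56%), CCAAT in 8 (44.4%) and E2F in 0. Of 18 regulatory T cell genes, 11 were in the table, and 4 (36.4%) held CHR, a share as high as that of the mitosis genes, and 3 (27.3%) CCAAT. Of 17 follicular helper genes, 12 were in the table, with CHR in 0 and CCAAT in 5 (41.7%). A match is a description of these letters and not a bound site.

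The members ranged from cells with a strong division program to cells at the edge of the rule. All 4 partner genes were present in 95 cells and exactly 1 in 67, 130 cells had at least 5 Mki67 UMIs and 47 had exactly 1, and 42 cells had 1 Mki67 UMI with 1 partner. Just outside the rule stood 173 other T cells with Mki67 and no partner, 323 with 1 partner and no Mki67, and 9 with no Mki67 and at least 2 partners. A measure the rule did not name is the sum of 100 genes of S phase and mitosis, given per 10000 UMIs of the cell. Its median was 167 in cells with all 4 partners, 81.2 in cells with 2 or 3 and 19.7 in cells with 1. The 42 cells that met the rule by 1 UMI of Mki67 and 1 partner gene had a median of 18.3, near the 15.8 of both kinds of single-gene cells just outside it and the 15.4 of cells with neither. Of the 217 members, 150 lay above 41.9, the 99th percentile of the other T cells, and 60 of the 67 that lay below it had 1 partner gene. That 75 other T cells lay above this level follows from its definition and is not a result. The edge of the rule therefore held many cells whose remaining cycle genes were at the level of cells outside it, and results are given with a stricter rule where it moves them.

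**Figure D1:**
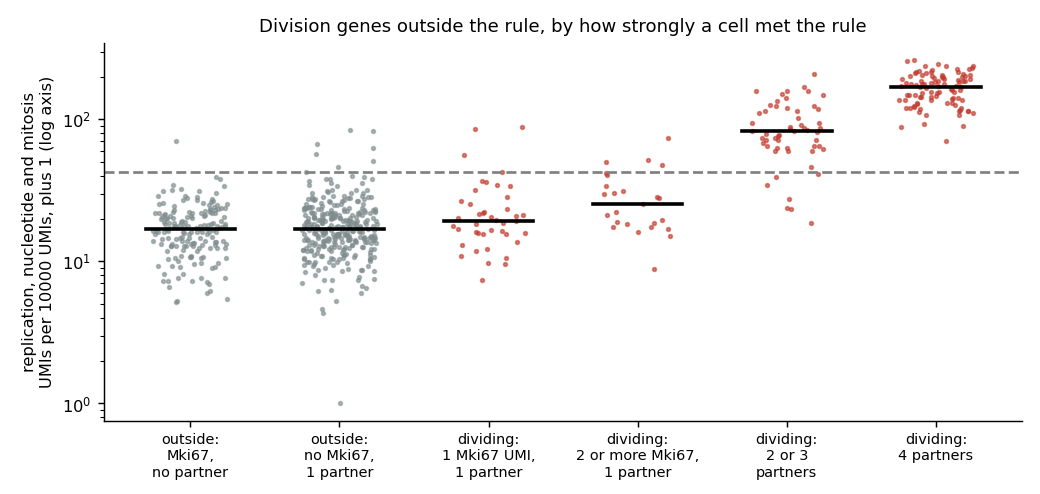
UMIs of 100 S phase and mitosis genes that the rule did not use, per 10000 UMIs of the cell plus 1 on a log axis, for cells grouped by how they met or missed the rule; each point is a cell, black bars are medians and the dashed line is the 99th percentile of other T cells. Medians go from 18.3 in cells with 1 Mki67 UMI and 1 partner gene to 167 in cells with all 4 partners.

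Dividing cells held more UMIs. The rule asks for UMIs of Mki67 and of a partner gene, so it favors cells with more UMIs, and its part in the difference was not tested. The 42 members with 1 Mki67 UMI and 1 partner had a median of 9480.5 UMIs. Outside the rule the median was 7291 with Mki67 alone, 6652 with 1 partner alone and 5062 with neither. The values for all dividing cells follow. Their median was 14612 UMIs (2450 to 65035) and 3622 genes, against 5135.5 UMIs and 1747 genes in other T cells, a 2.85-fold difference in UMIs. The mitochondrial share was 2.46% against 3.02% in the median cell. A cell with more UMIs is more likely to show 1 UMI of any gene, so shares of cells are also given after thinning each cell to 2000 UMIs, and the part that depth plays in a level was not tested. Doublets were removed only through the hashtags, and 98 of the 217 dividing cells had over 3 times the median UMIs of all T cells, as did 87 other T cells. Of the 84 barcodes seen in both libraries, 1 belonged to a dividing cell. In the B cell library, 11 cells met the T cell limits and 0 met the rule.

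Most of the cells held Cd4, and some held markers of other cell types. Cd4 had a UMI in 199 of 217 (91.7%) and stood at 251 CPM against 268 CPM in other T cells, Cd8a had none, and Cd8b1 was seen in 19 cells, 1 of which lacked Cd4. Of 12 B cell markers, 8 had UMIs in dividing cells, with a sum of 363 CPM against 251 CPM in other T cells, nearly all of it Ighm (331 against 219 CPM), while Ms4a1, Ebf1, H2-Aa and Bank1 were at 0. Myeloid and dendritic markers summed to 192 against 88.0 CPM, and 1 control day 4 cell held 325 of the Lyz2 UMIs. That cell had 17291 UMIs, 7 of Cd3e and 2 of Cd4, but only 1 partner gene. Erythroid markers were lower, 50.1 against 509 CPM, but by class they were higher in dividing Foxp3+ (100.3 against 5.13 CPM) and Cxcr5+ cells (77.2 against 5.50 CPM), with Car1 at 83 and 45 UMIs in 2 KO day 4 cells. The 10 markers of NK or innate-like T cells summed to 134 against 121 CPM, with a UMI in 42 of 217 cells and up to 109 UMIs in 1 cell. They stood at 225 against 130 CPM in cells with neither Foxp3 nor Cxcr5, 56.2 against 58.0 CPM in Foxp3+ and 36.6 against 92.1 CPM in Cxcr5+ cells.

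Dividing cells were mostly cells of the immunized pools. At day 0, 3 of 912 control T cells (0.329%, 0.0679 to 0.958) and 9 of 1166 KO T cells (0.772%, 0.354 to 1.46) were dividing. At day 4 the numbers were 87 of 1977 in control (4.40%, 3.54 to 5.40) and 118 of 3658 in KO (3.23%, 2.68 to 3.85). The day 4 share was 13.4 times (4.43 to 66.1) the day 0 share in control and 4.18 times (2.13 to 9.37) in KO, with 1 pool behind each value. Thinned to 2000 UMIs the shares were 0.333, 0.612, 2.36 and 1.61% in the same order, and the ratios 7.08 and 2.62. Both genotypes thus had more dividing cells in the immunized pool, at either depth.

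The KO pool had the lower share at day 4 and the higher one at day 0, and these directions held under the alternatives run, but the intervals did not always leave out 1. At day 4 the KO share was 0.733 (0.551 to 0.978) of control. Thinned it was 0.681 (0.454 to 1.03), and with at least 2 partner genes 0.835 (0.588 to 1.19), so the interval reached 1. At day 0 the KO share was 2.35 times control (0.585 to 13.5), from 9 and 3 cells. Median UMIs of the dividing cells were 9936 and 4764 in the control and KO pools at day 0, and 13161 and 15433 at day 4, against 4563, 4658, 5586 and 5260 in other T cells of the same pools.

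**Figure D2:**
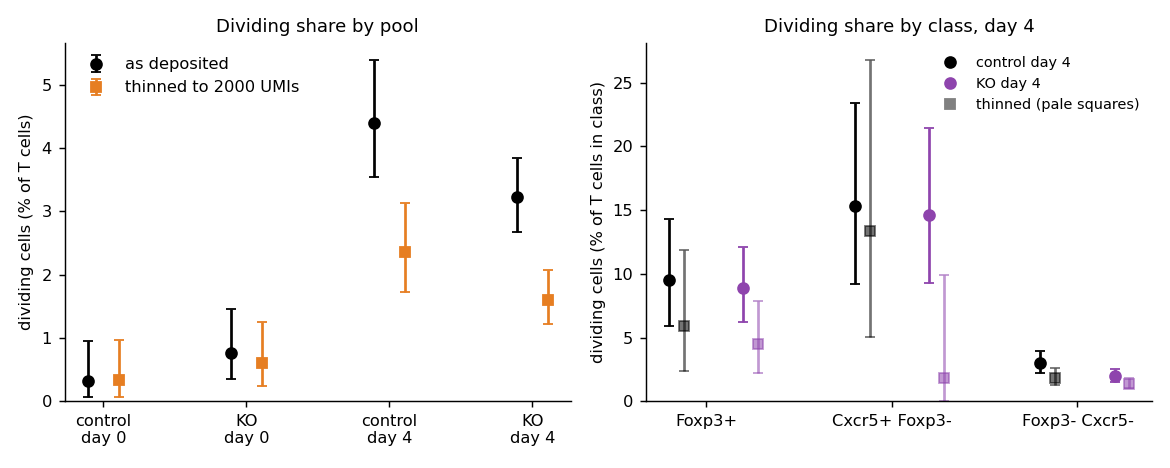
Left, the percent of T cells that were dividing in each of the 4 pools, as deposited and after thinning to 2000 UMIs; right, the percent dividing within Foxp3+, Cxcr5+ Foxp3- and remaining T cells at day 4 in control (black) and KO (purple), pale squares thinned; bars are 95% counting intervals. The day 4 pools, at 4.40 and 3.23%, lie above the day 0 pools at 0.329 and 0.772%, and the Cxcr5+ class has the highest share as deposited.

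The 12 day 0 cells did not all carry a weak program. In control, the 3 cells had 84.2, 61.4 and 18.4 UMIs of the 100 cycle genes per 10000, all leaned to mitosis (defined below), and 1 was Foxp3+. In KO, the 9 cells ranged from 20.4 to 213 and 1 was Foxp3+. No Cxcr5+ cell was among the 12.

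Of the 217 dividing cells, 57 (26.3%, 20.5 to 32.7) had a UMI of Foxp3, 38 (17.5%, 12.7 to 23.2) had Cxcr5 without Foxp3, and 122 (56.2%) had neither. Another view of the same cells is that 6 had both genes, 4 in control and 2 in KO, all at day 4, and these were counted as Foxp3+. Among other T cells the shares were 9.07% Foxp3+, 3.30% Cxcr5+ Foxp3- and 87.6% neither. Foxp3+ and Cxcr5+ cells thus took a larger share of the dividing than of the other T cells. Thinned to 2000 UMIs, a Foxp3 UMI was left in 26 of the 217 dividing cells (11.98%) and 5.73% of the other T cells. A Cxcr5 UMI was left in 6.45% of the dividing and 1.502% of the other T cells, where 20.3 and 3.98% had one before thinning. Background in cells that should lack the genes was 0.181% for Foxp3 in 5520 B cells (median 5456 UMIs). For Cxcr5 it was 5.50% in 109 T cells with Cd8b1 and no Cd4 (median 4857 UMIs), though 15.6% of these also held Foxp3. The Foxp3+ share was 30.7% among cells with at least 2 partner genes and 16.4% among those with 1. Median UMIs of these cells were 17177.5 and 10502, and the part of depth in this was not tested.

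By day 4 pool, the classes were made up as follows. In control, 20 of 87 dividing cells were Foxp3+ (23.0%), 17 Cxcr5+ Foxp3- (19.5%) and 50 neither (57.5%). In KO the counts were 35 of 118 (29.7%), 21 (17.8%) and 62 (52.5%). Called and classed from thinned counts, Cxcr5+ Foxp3- cells were 6 of 46 dividing cells in control (13.0%, 4.94 to 26.3) and 1 of 58 in KO (1.72%, 0.0436 to 9.24), and Foxp3+ cells were 15.2 and 19.0%. The Cxcr5+ shares thus lay close as deposited and apart when thinned, from few cells. Read the other way, 9.52% (5.91 to 14.3) of control and 8.88% (6.27 to 12.1) of KO Foxp3+ T cells were dividing at day 4. Among Cxcr5+ Foxp3- cells it was 15.3% (9.18 to 23.4) and 14.6% (9.26 to 21.4), and among cells with neither 3.02% (2.25 to 3.96) and 1.99% (1.53 to 2.54).

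The KO to control ratio was 0.933 (0.524 to 1.71) in Foxp3+, 0.952 (0.478 to 1.92) in Cxcr5+ and 0.658 (0.446 to 0.975) in the remaining cells, and these 3 ratios have overlapping intervals and were not compared by a test. With at least 2 partner genes, an alternative chosen after seeing the data, the remaining class stood at 1.51% in control and 1.44% in KO. Thinned, the Cxcr5+ class stood at 13.3% (6 of 45) in control and 1.85% (1 of 54) in KO. The Foxp3+ class then stood at 5.93 and 4.47% and the remaining class at 1.85 and 1.39%. At that depth the KO share was the lower one in each class, so the difference cannot be placed in 1 class. Median UMIs were 16246, 17227.5 and 13492 in dividing Foxp3+, Cxcr5+ and remaining cells.

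Where a cell stood in the cycle was read from the balance of 55 S phase genes (replication and nucleotide synthesis) and 45 mitosis genes. A cell was called S-leaning when over 0.6 of these UMIs came from the S genes, mitosis-leaning under 0.4, and mixed between. On this scale 76 cells (35.02%) were S-leaning, 45 (20.7%) mixed and 96 (44.2%) mitosis-leaning, and 63 lay within 0.05 of a limit. These are ranges of a score and not cell types. The 67 cells with exactly 1 partner gene had a median of only 22 UMIs of these genes. Their level per 10000 lay near that of cells outside the rule, as given above, so their balance may not show a place in the cycle. At day 4 they were 32 of the 87 control and 33 of the 118 KO members. Over all pools they were 11 of the 57 Foxp3+ members, 12 of the 38 Cxcr5+ Foxp3- members and 67 of all 217. Their part in the shares that follow was not tested. S-leaning cells were 42.5% (37 of 87, 32.0 to 53.6) of the control and 29.7% (35 of 118, 21.6 to 38.8) of the KO dividing cells at day 4, and 37.9 against 29.7% after thinning the same cells. Foxp3+ dividing cells were S-leaning in 19.3% (11 of 57, 10.0 to 31.9) and mitosis-leaning in 56.1%. Cxcr5+ cells were S-leaning in 44.7% (17 of 38) and cells with neither in 39.3% (48 of 122). Among cells with neither, 25 of 50 control and 19 of 62 KO cells leaned to S phase.

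**Figure D3:**
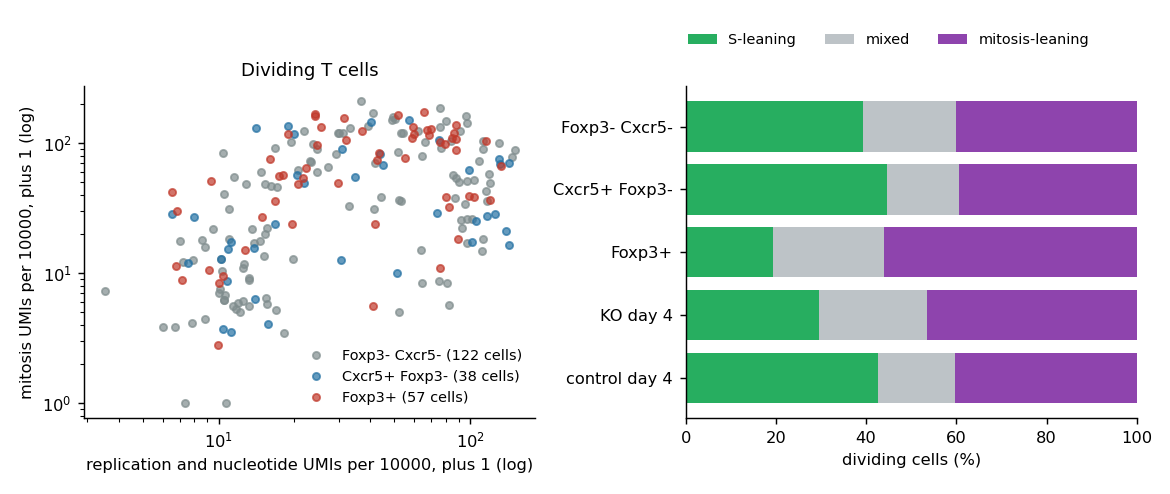
Left, UMIs of the S phase genes against those of the mitosis genes per 10000 UMIs, with each point a dividing cell coloured by class; right, stacked shares of S-leaning, mixed and mitosis-leaning cells by day 4 pool and by class. S-leaning cells make up 42.5% of control and 29.7% of KO dividing cells at day 4 and 19.3% of Foxp3+ dividing cells.

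Histone transcripts marked a subset on their own. Replication-dependent histones are made in S phase, and their genes form a family of near-identical copies, so that the counts of single histone genes are uncertain and the sum is used. Over 50 histone UMIs per 10000 were present in 71 of 217 dividing cells (32.7%) and in 0 of 7496 other T cells, which allows a share of up to 0.0492%, and whose highest value was 30.3. The highest dividing cell reached 420. The share above 50 was 26.3% of S-leaning (20 of 76) and 36.5% of mitosis-leaning cells (35 of 96), so histone-high cells were found on both sides of the balance. Only 16 members lay between 20 and 80. Most histone messages lack a poly(A) tail, and the library was made from poly(A) RNA, so these values are not the full histone RNA of a cell.

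Genes with a role in division led the comparison of dividing with other T cells, as the rule requires. Of 11255 genes with at least 50 UMIs, 11.6% stood at least 2-fold higher in dividing cells and 9.63% at least 2-fold lower, and the median log2 ratio of all genes was 0.05. Within control day 4 alone 9.85% stood higher and 8.7% lower, and within KO day 4 the shares were 11 and 9.02%. The rule genes themselves stood at 828 against 5.42 CPM (Mki67), 699 against 7.86 (Top2a), 159 against 0.713 (Cdk1), 207 against 0.855 (Ccna2) and 498 against 0.998 (Birc5). All 35 DNA replication genes were at least 2-fold higher, with a median log2 ratio of 2.96 and a summed level of 3609 against 505 CPM, and so were all 32 counted in control and all 34 in KO at day 4. Pclaf, the PCNA-associated factor, stood at 665 against 2.61 CPM. Pcna, the sliding clamp, stood at 288 against 69.8 CPM, a ratio of only 4.13 (3.85 to 4.43), since other T cells held it too. Among the helicase subunits the ratios were 7.87 for Mcm3, 9.84 for Mcm5 and 4.996 for Mcm6, while Uhrf1 stood 42.1-fold higher.

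Of 20 nucleotide synthesis genes, 12 were at least 2-fold higher and 0 lower (median log2 ratio 1.07). Here the genes for deoxynucleotides stood apart from those for bases. Rrm2, the inducible ribonucleotide reductase subunit, stood at 275 against 2.26 CPM, 122-fold (98.8 to 152), and Tyms, thymidylate synthase, at 145 against 5.87 CPM. The purine synthesis enzyme Gart had a log2 ratio of −0.13 and the pyrimidine enzyme Cad one of 0.40.

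Of 45 mitosis genes, 43 were at least 2-fold higher, with a median log2 ratio of 6.67 and a sum of 6472 against 645 CPM. Ube2c, whose promoter is shown above, stood at 565 against 2.66 CPM, 213-fold (176 to 259). Cenpf, a kinetochore protein, stood at 247 against 0.784 CPM and Plk1, the polo-like kinase, at 87.0 against 0.855 CPM. The exceptions were Smc4, a condensin subunit, at 525 against 430 CPM, and Pttg1, securin, at 75.8 against 69.3 CPM. Other T cells thus held both at nearly the level of dividing cells. All 50 histones that could be counted, of 54 listed, were at least 2-fold higher, with a median log2 ratio of 5.19 and a sum of 8229 against 294 CPM.

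By size alone the 12 highest genes were Kif14, Sapcd2, Hmmr, Kif18b, Hist1h2af, Esco2, Espl1, Ska1, Pimreg, Nek2, Bub1 and E2f7. Hmmr, a spindle protein, stood at 148 against 0.166 CPM, 892-fold (430 to 2229). Pimreg had 135 UMIs against 0 in other T cells, at least 492-fold with a floor of 3 UMIs over the group. Kif14, a mitotic kinesin, had 137 UMIs against 1.

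The cyclins and their inhibitors split. Of 27 such genes counted, 19 were at least 2-fold higher and 1 lower. Ccne1, the G1/S cyclin E1, stood at 37.9 against 4.42 CPM. Ccnd2, a D-type cyclin of G1, was the 1 at least 2-fold lower, at 164 against 343 CPM, and Ccnd3 stood at 131 against 150 CPM. Among inhibitors, Cdkn2c (p18) stood at 73.0 against 6.68 CPM, Cdkn1a (p21) at 8.57 against 1.07 CPM and Cdkn1b (p27) at 90.4 against 131 CPM. Of 9 p53 target genes counted, 1 was at least 2-fold higher and 1 lower, with a median log2 ratio of 0.28.

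Genes of quiescence and homing were lower in dividing cells. None of 21 was at least 2-fold higher, 11 were at least 2-fold lower, and their median log2 ratio was −1.08, with a sum of 3242 against 6793 CPM. Il7r, the receptor for the survival cytokine IL-7, stood at 64.0 CPM (control) and 167 CPM (KO) in dividing cells of unimmunized mice. Those values rest on 3 and 9 cells. The day 4 levels were 39.3 and 33.3 CPM. Both day 4 pools were far below other T cells. Over all pools it had 154 UMIs in 53 cells, 40.002 against 362 CPM, 0.111 (0.0938 to 0.130) of the level in other T cells. Bcl2, the survival factor, had no UMI in the 12 day 0 cells, which held 31272 (control) and 113557 (KO) UMIs in all. So few UMIs allow no reading of a change with day. The day 4 levels of Bcl2 were 21.2 CPM (control) and 24.2 CPM (KO). Over all pools that made 22.1 against 201 CPM, 0.110 (0.0876 to 0.136), and 58 of 217 cells had a UMI. It was low in each class, at 20.1, 32.5 and 19.3 CPM in Foxp3+, Cxcr5+ and remaining dividing cells against 169, 80.7 and 212 CPM in other T cells of the same class. Ccr7, the receptor for the T cell zone, stood at 73.8 against 266 CPM. Lef1 and Foxp1, factors of the naive state, stood at 151 against 452 CPM and 128 against 292 CPM.

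The homing genes differed among themselves. Klf2, which drives the egress receptor S1pr1, stood at 404 against 552 CPM, a smaller difference than that of Ccr7. By size the lowest genes in dividing cells were Hotairm1, Gm32633, Ggt5, Igfbp4, Tmie, Cnn3, Tmem108, Gm34006, Amigo2, Prf1, Gm19261 and 2900005J15Rik. Igfbp4, a gene of naive T cells, stood at 19.5 against 324 CPM, 0.060 of the level in other T cells.

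Among the receptors for IL-2, the gene deleted in the B cells of these mice was well expressed in the dividing T cells. Il2rb stood at 288 CPM (control) and 247 CPM (KO) in the dividing cells of day 0, which rest on 3 and 9 cells, and at 176 and 192 CPM in those of day 4. At day 4 the KO to control ratio was 1.09 (0.932 to 1.27). Against other T cells it was 188 to 94.6 CPM, 1.98-fold (1.83 to 2.15), but this held only in the cells with neither class gene, 171 against 69.4 CPM. In Foxp3+ cells it was 261 against 298 CPM and in Cxcr5+ cells 104 against 148 CPM. Il2ra, the alpha chain that makes the receptor high in affinity, stood at 106 against 39.0 CPM over all classes, and singly at 303, 5.42 and 13.9 CPM in Foxp3+, Cxcr5+ and remaining dividing cells. It was thus a transcript of the Foxp3+ cells. Il2rg, the shared gamma chain, stood at 393 against 432 CPM. Of 16 genes of the IL-2 family, 1 was at least 2-fold higher and 4 lower, and the lower ones were Bcl2, Il4ra (26.2 against 127 CPM) and the feedback inhibitors Socs1 (33.0 against 86.1 CPM) and Socs3 (17.9 against 54.3 CPM). In B cells of the B cell library, Il2rb had 0, 0, 11 and 4 UMIs in 1101, 982, 1487 and 1950 cells of the same 4 pools, so the deletion could not be checked at this depth, and the sources used here do not name the floxed exons.

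Metabolic and activation genes differed in extent. Of 17 glycolysis genes, 8 were at least 2-fold higher and 0 lower (median log2 ratio 0.72), with Ldha, lactate dehydrogenase, at 773 against 331 CPM and Pkm, pyruvate kinase, at 400 against 184 CPM, but the glucose transporter Slc2a1 had a log2 ratio of −0.16. Of 15 cholesterol synthesis genes 1 was at least 2-fold higher (median 0.47), and of 18 MYC and ribosome biogenesis genes 1 was higher and 2 lower (median 0.02). Myc itself, an early activation factor, stood at 20.5 against 57.9 CPM, 0.354 of the other cells' level, and Npm1, a nucleolar protein, at 1004 against 965 CPM. T cell receptor response genes had a median log2 ratio of −0.15, with 3 of 14 at least 2-fold higher and 2 lower. Of 13 type I interferon genes 5 were at least 2-fold lower and 0 higher, with a median of −0.37, although their summed level was higher (4303 against 2809 CPM) through Ifi27l2a alone, at 3568 against 1845 CPM.

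**Figure D4:**
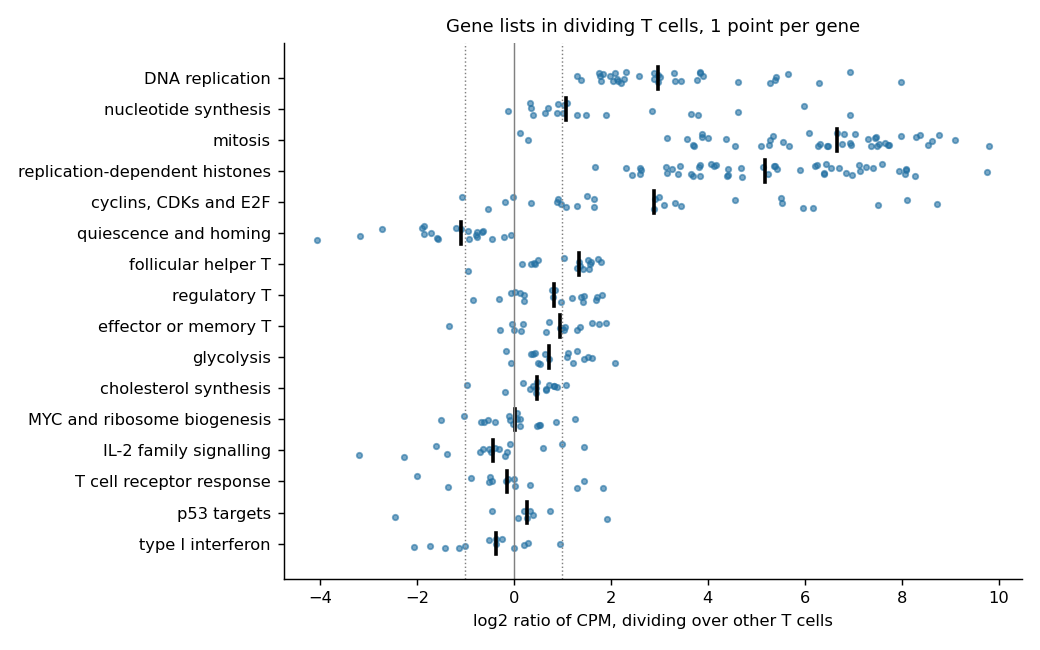
Log2 ratio of the level in dividing over other T cells, with each point a gene, in 16 gene lists, and a bar at each list's median; dotted lines mark ratios of 2 and 0.5. Mitosis (6.67), histone (5.19) and DNA replication (2.96) genes have the highest medians and quiescence and homing genes the lowest, at −1.08.

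Helper and effector genes were higher over all dividing cells, and the classes show where. Of 17 follicular helper genes, 11 were at least 2-fold higher and 0 lower (median log2 ratio 1.35), and 8 of 17 effector or memory genes were higher and 1 lower (0.95). Of 18 regulatory T cell genes, 7 were higher and 0 lower (0.84). Pdcd1, the inhibitory receptor PD-1, stood at 55.6 against 19.0 CPM and Cd44, an activation marker, at 79.7 against 41.4 CPM. Within a class, however, dividing cells did not hold more of that class's genes. Among Foxp3+ cells, where 9.05% of genes were at least 2-fold higher and 10.1% lower in dividing cells, the regulatory list had a median log2 ratio of −0.86, with 0 of 17 higher and 6 lower. Foxp3 itself, which defines the class by 1 UMI, stood at 222 against 442 CPM, next to median UMIs of 16246 against 4957, and the part of depth in this was not tested.

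Among Cxcr5+ cells, where 4.62% of genes were higher and 4.71% lower, the follicular helper list stood at −0.24, with 0 of 16 at least 2-fold higher. Among cells with neither gene, where 12.1% were higher and 9.46% lower, it stood at 1.42, with 9 of 15 higher, and the effector list at 1.08, with 8 of 16 higher. The quiescence list was lower in each class, with medians of −1.21, −0.56 and −1.13. The 30 replication genes counted in Foxp3+ cells were all at least 2-fold higher.

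Foxp3+ dividing cells held more of the regulatory genes and less of many, but not all, follicular helper genes at day 4. In 55 Foxp3+ against 150 Foxp3- dividing cells, 1.57% of 6928 genes were at least 2-fold higher and 2.28% lower, and 6 of the 9 regulatory genes counted were higher (median log2 ratio 1.59). Among other T cells the same split gave 5.09% higher and 2.62% lower. Il2ra stood at 309 against 12.02 CPM, 25.7-fold (17.7 to 38.6), with a UMI in 36 of the 55 and 17 of the 150 cells. Ikzf2, the factor Helios, stood at 401 against 133 CPM, 3.003-fold, where other T cells gave 9.14-fold, and Ctla4, the inhibitory receptor, was 3.21-fold higher. By size the highest were Coro2a, Gna15, Gbp7, Igf2r, Pim1, Ikzf2, Ifngr1 and Nabp1. Coro2a, a coronin, stood at 43.0 against 3.20 CPM, 13.4-fold (6.33 to 32.7), and was 11.8-fold higher in other Foxp3+ T cells too. Pim1, a kinase gene induced by STAT5, stood at 305 against 101 CPM, 3.02-fold, and 3.26-fold in other T cells.

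Helper genes were among those lower in Foxp3+ dividing cells. Of 16 follicular helper genes, 9 were at least 2-fold lower, with a median of −1.35. The listed gene Icos was not rarer in Foxp3+ cells. Over all pools and thinned, it had a UMI in 45.6% of Foxp3+, 26.3% of Cxcr5+ Foxp3- and 36.1% of remaining dividing cells. Tox2, a factor of follicular helper cells, had 5 UMIs in Foxp3+ cells and stood at 4.14 against 71.3 CPM, 0.058 (0.0186 to 0.138), whereas in other T cells the ratio was 0.981. Tcf7, the factor TCF-1, stood at 114 against 569 CPM, 0.201, where other T cells gave 0.427, and Nsg2 at 30.6 against 189 CPM, 0.162, where other T cells gave 0.637. Tnfsf8, the ligand of CD30, had a ratio of 0.130, against 0.678 in other T cells. These differences were thus wider among dividing than among other T cells, though the ratio of ratios has no replicate behind it. All 45 mitosis genes had ratios above 1 (median 0.38), next to the larger mitosis-leaning share of Foxp3+ cells given above. The share of all genes with a ratio above 1 is not given for this comparison. Over all pools, 11 of the 57 Foxp3+ members had exactly 1 partner gene, against 67 of all 217 members, and the part of this was not tested.

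Cxcr5+ dividing cells held more of the follicular helper genes. In 38 Cxcr5+ Foxp3- against 112 dividing cells with neither gene at day 4, 0.884% of 5772 genes were at least 2-fold higher and 2.63% lower, and 8 of 15 follicular helper genes were higher (median log2 ratio 1.21). Among other T cells the split gave 7.46% higher and 5.43% lower. Tox2 stood at 159 against 34.7 CPM, 4.57-fold (3.33 to 6.34), Bcl6, the master factor of the lineage, at 81.3 against 15.9 CPM, 5.11-fold (3.21 to 8.31), and Pdcd1 at 149 against 38.1 CPM, 3.91-fold. The helper cytokines Il4 and Il21 were 4.60-fold and 3.01-fold higher, whereas the costimulator Icos was not (0.836) and Cd200 stood at 1.15. In other T cells the Tox2 levels were 143 and 7.30 CPM, a ratio of 19.6, so the Cxcr5+ levels were close and the Cxcr5- level was higher in dividing cells.

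The genes at least 2-fold lower in Cxcr5+ dividing cells included 7 of 11 effector or memory genes (median −1.30). S100a4, a calcium-binding protein of effector cells, stood at 43.4 against 328 CPM, 0.132 (0.0895 to 0.189), with a UMI in 6 of 38 and 46 of 112 cells, while among other T cells the Cxcr5+ cells held 2.56 times the level of the rest. Emp3, a membrane protein, stood at 84.0 against 457 CPM, 0.184, against 0.505 in other T cells, and Rasgrp2, a RAP1 exchange factor, had a ratio of 0.175, against 0.512. Il2rb went the same way, at 104 against 165 CPM, 0.631, while in other T cells the ratio was 1.97. NK or innate-like T markers were also higher in dividing than other cells of the class with neither gene (225 against 130 CPM, in 25 of 122 cells), and their part in the effector and Il2rb values was not tested.

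**Figure D5:**
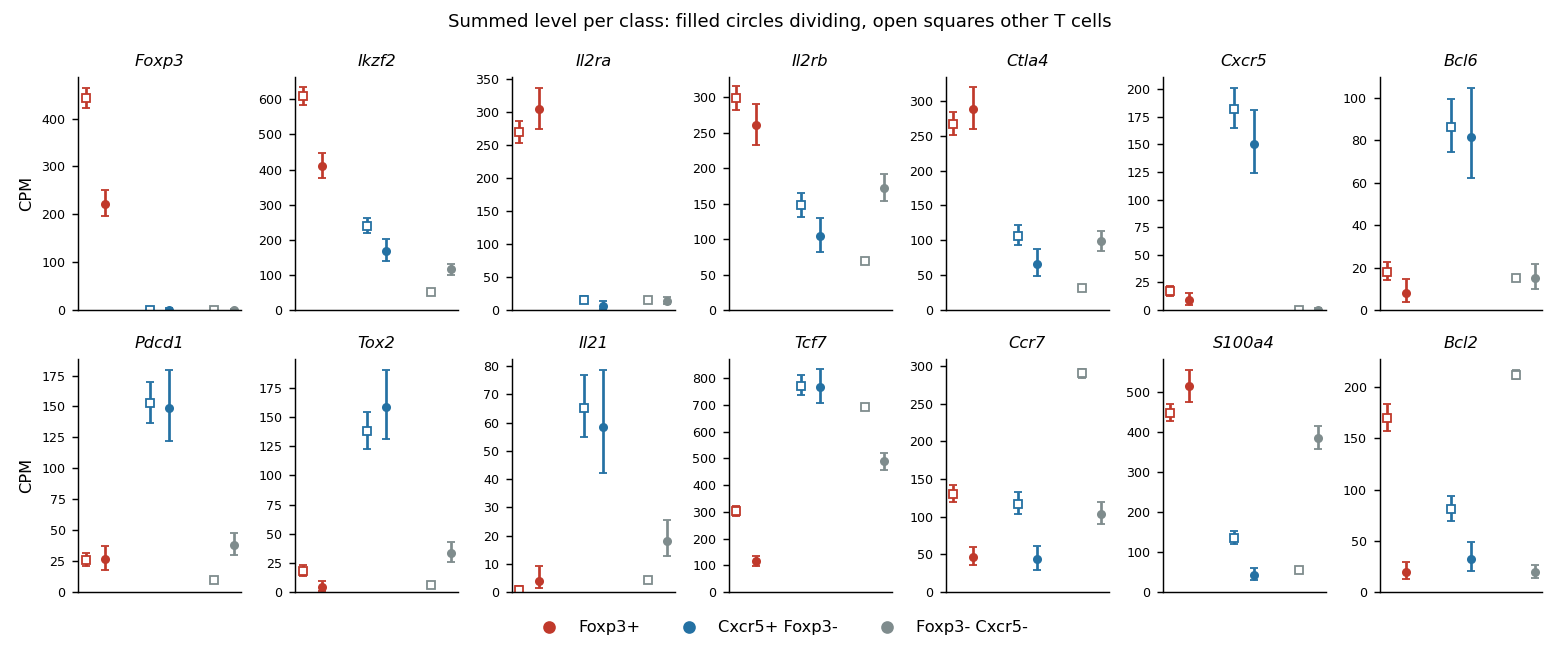
Levels in CPM, on linear axes from 0, of 14 genes in Foxp3+, Cxcr5+ Foxp3- and remaining T cells, filled symbols for dividing and open squares for other T cells, with 95% Poisson intervals. Bcl2 is lower in dividing cells of each class (20.1, 32.5 and 19.3 CPM), and Il2ra is high only in the Foxp3+ class (303 CPM).

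Few genes separated the genotypes. Between KO and control dividing cells at day 4, 0.606% of 6929 genes were at least 2-fold higher and 0.332% lower. In other T cells the same comparison gave 0.226 and 0.47% of 10631 genes. In numbers, 42 dividing-cell genes were higher and 23 lower, and leaving out genes with over 10% of a group's UMIs in 1 cell left 1 higher and 3 lower. That filter acts on all genes, also those not called, and the share of the genes it left is not given. The smaller counts therefore do not show that the differences came from single cells. Replication genes had ratios above 1 in 4 of 34 members (median log2 ratio −0.20) and mitosis genes in 40 of 45 (0.21), next to the lower S-leaning share in KO. The share of all genes with a ratio above 1 is not given, so such counts are a description only. Cells with exactly 1 partner gene were 32 of the 87 control and 33 of the 118 KO members, and their part was not tested. Uhrf1 stood at 97.0 CPM in KO against 147 CPM in control, 0.658, Mcm3 at 133 against 166 CPM, Top2a at 768 against 580 CPM and Plk1 at 97.4 against 72.5 CPM. The mitosis median was 0.55 in cells with neither class gene (43 of 44 above 1), 0.16 in Cxcr5+ and −0.27 in Foxp3+ dividing cells. The direction in Foxp3+ cells was therefore the opposite one.

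Bcl6 stood at 36.6 CPM in KO against 12.5 CPM in control, 2.93-fold (1.77 to 5.06), from 77 and 20 UMIs in 21 and 13 cells, with 11.7% of the KO UMIs in 1 cell, and at 21.1 against 22.3 CPM in other T cells. It was the 1 follicular helper gene at least 2-fold higher, and the list's median was 0.03. Il2ra stood at 91.7 against 131 CPM, 0.699, with 42.9% of the control UMIs in 1 cell, and Il2rg at 426 against 347 CPM, 1.23-fold (1.10 to 1.37). Ifi27l2a, an interferon-induced gene, stood at 4156 against 2755 CPM, 1.51-fold, and at 2118 against 2019 CPM in other T cells. By class, the 8 interferon genes counted in Foxp3+ dividing cells all had ratios above 1 (median 0.88), with up to 55.6% of a gene's control UMIs in 1 cell (Rtp4), while the median was −0.47 in cells with neither gene. The share of all genes with a ratio above 1 is not given for these classes. At least 2-fold differences made up 1.4% (higher) and 0.813% (lower) of all genes counted in Foxp3+ dividing cells, 1.46 and 0.975% in Cxcr5+ cells and 0.976 and 0.445% in cells with neither. By size the highest were AI987944, Fam83d, Wee1, Cep70, Dhx58, Ubxn11, Fbxl12 and Tmem63a. Wee1, the kinase that restrains CDK1, was 2.73-fold (1.41 to 5.68) higher.

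The lowest were Gm43305, Chmp7, Kbtbd4, Trp53i13, Aig1, Fbrsl1, Nceh1 and Zfp263. Gm43305 stood at 81.7 against 196 CPM, 0.418 (0.345 to 0.505), and at 9.73 against 32.5 CPM in other T cells, 0.300, so its lower level was not particular to dividing cells. With 1 pool per genotype, the mice in a pool and the genotype cannot be told apart for any of these genes.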

How the data were processed

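The data were used as deposited: the authors' matrices of UMI counts per gene and cell, and of hashtag counts per cell, from 10x single cell 5' V2 libraries, processed with Cell Ranger 5.0.0 on mm10 per the submitters' processing notes. Pools were read from the hashtags. Cells with no dominant hashtag were left out as possible doublets, and no doublet caller was run. 0 columns belonged to other samples. Counts were summed per group and given as CPM. Genes needed 50 UMIs over both groups, and a ratio of at least 2 or at most 0.5 was counted as higher or lower. With 1 pool per genotype and day no test was made. Shares were also computed after thinning each cell to 2000 UMIs, which left out 108 shallower T cells. The members, gene lists, classes and motifs were chosen with earlier results of these data known. The genes named by size were the 12 highest and 12 lowest against other T cells, and the 8 highest and 8 lowest between dividing groups, with 100 (or 50) UMIs, at most 10% of the higher group's UMIs in 1 cell and a UMI in at least 5% of its cells, without receptor genes. Of each list up to 4 of the highest and lowest members could be named, and the rule genes, Foxp3, Cxcr5, Cd4 and the IL-2 receptor genes always. Further genes were named by their role after their values were seen. Alternatives changed the hashtag, mitochondrial and gene limits, depth, scaling and weights of pools. The scripts used Python 3.11.15, NumPy 2.4.6, SciPy 1.17.1 and pandas 2.3.3, and were tested on simulated data.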

Additional observations from a re-analysis of the deposited data

Results flagged for a closer look

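Some cells with the division genes lay outside the comparisons. Past the quality limits, 34 cells of the T cell library carried the full gene pattern of dividing T cells but no clear hashtag, because their top hashtag was under 3 times the next. Their median of 18253 UMIs was above the 14612 of the members, the highest ratio among them was 2.89, and the lowest ratio among members was 3.23. A further 25 cells with a clear hashtag had the division genes with Cd3e at 0. Counted separately, 3 cells with a clear hashtag had the division genes and Cd79a. None of these cells has a place in the groups compared above, and what these cells are was not tested.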

How the results depend on the processing

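No paired analysis was possible because each genotype and day is 1 pool. Of 255 shares, share ratios and counts recomputed under an alternative, 215 stayed within their interval or within 1.5 times and 40 moved. Among these, a reversal could be called only for share ratios whose interval left out 1, and 0 were called. For a gene or list a reversal needed a change of sign from a log2 ratio of at least 1 or at most −1, and 0 were called. Of 931 gene and list values, 775 stayed and 156 moved. The causes were not tested. The dividing share at day 4 in control and KO was 3.29 and 2.60% with at least 2 Mki67 UMIs, 2.78 and 2.32% with at least 2 partner genes, 2.68 and 1.69% without cells above 3 times the median UMIs, 2.36 and 1.61% thinned, and 2.63 and 2.10% with at least 3 Mki67 UMIs and 2 partners, a setting chosen after seeing the data. Its KO to control ratio ranged from 0.631 (0.427 to 0.936) to 0.835 (0.588 to 1.19) over the alternatives. Cells called and classed from thinned counts were Foxp3+ in 16.7% (19.0% in KO day 4), Cxcr5+ Foxp3- in 6.14% (1.72% in KO day 4) and S-leaning in 24.6% (17.2% in KO day 4). With 2 Cxcr5 UMIs the Cxcr5+ Foxp3- share was 11.98%, and with a single limit of 0.5 the S-leaning share was 42.9%. The class settings that follow were chosen after seeing the data. Thinned, dividing shares in KO were 4.47% of Foxp3+, 1.85% of Cxcr5+ and 1.39% of remaining cells, and 1.85% of remaining cells in control. With 2 partner genes they were 9.03% of Cxcr5+ and 1.44% of remaining cells in KO and 1.51% of remaining cells in control. Genes at least 2-fold lower in dividing than other T cells numbered 353 without genes led by 1 cell and 2118 with pools weighted equally, against 1084. With at least 100 UMIs, KO against control gave 9 higher and 6 lower genes, Foxp3+ against Foxp3- 51 and 81, and Cxcr5+ against Cxcr5- 27 and 68. Without genes led by 1 cell they gave 1 and 3, 23 and 9, and 7 and 5. The limits of 100 UMIs and of 1 cell also cut the number of genes counted. Counts under them, here and against other T cells, are therefore not comparable with the full counts. Foxp3+ against Foxp3- in mitosis-leaning cells alone, with fewer cells, gave 64 higher. With pools weighted equally the follicular helper median was 0.82, against 1.35. The 12 day 0 cells and the 38 Cxcr5+ cells set the limit of what this depth can show.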

Other observations

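5 further gene lists were looked at after the results above were seen. Oxidative phosphorylation genes stood higher in dividing than in other T cells for 74 of 79 members, with a median log2 ratio of 0.69, and proteasome genes for 36 of 37 (0.74). Tubulins, the subunits of the spindle and cytoskeleton, had a median of 1.53, with 7 of 11 at least 2-fold higher, and Tuba1b stood at 1040 against 173 CPM. Ribosomal protein genes went the other way, with ratios above 1 in 9 of 81 and a median of −0.56, and 0 of 13 genes encoded in the mitochondrial genome had a ratio above 1 (−0.31). The median log2 ratio of all genes is given above, but the share of all genes with a ratio above 1 is not. These values describe the cells picked by the rule, and the share of UMIs that cycle genes take in those cells was not corrected for.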
